A study of Mus musculus with 10 samples.

Results

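The genes described here are 9 members of the phosphoinositide 3-kinase (PI3K) and Akt pathway, chosen by name and measured in regulatory T cells with and without the transcription factor c-Maf. They are the catalytic subunits Pik3cd, Pik3ca and Pik3cg, the regulatory subunits Pik3r1 and Pik3r5, the inhibitory protein Pik3ip1, the lipid phosphatase Inpp5d, and the kinases Akt1 and Akt2. All 9 were among the 27179 genes of the count table, and all 9 passed the filter on low counts that left 13214 genes for testing. Regulatory T cells (Treg cells) carry the transcription factor Foxp3 and hold back other lymphocytes. They had been sorted by CD4, TCR beta and a YFP reporter from gut, meaning colon plus small intestine, and from spleen of C57BL/6 mice. The 4 groups were Maf-KO gut (2 libraries), WT gut (2), Maf-KO spleen (3) and WT spleen (3). Maf-KO mice had the genotype Maf fl/fl x Foxp3Cre-YFP, in which Cre driven from Foxp3 removes floxed Maf in Foxp3-expressing cells. WT mice had Foxp3Cre-YFP, so that the same Cre allele was present in both genotypes. No age of the mice is given in the sources used here. The labels do not state that libraries of a group came from separate animals, so p-values measure the spread between these samples, which may be technical. The study asks how c-Maf in Treg cells affects intestinal Th17 cells, IgA and the microbiota.

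Class I PI3K adds a phosphate to a membrane lipid and makes PIP3, which recruits proteins with a PH domain, Akt among them, to the plasma membrane. Akt then phosphorylates many substrates, and the Foxo transcription factors it phosphorylates leave the nucleus. In T cells the antigen receptor, CD28, ICOS and cytokine receptors feed into the pathway. Treg cells are known to be sensitive to its strength, and the p110 delta kinase encoded by Pik3cd is the main leukocyte isoform downstream of the antigen receptor.

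Pik3ip1, Pik3r5 and Pik3r1 differed most between gut and spleen, and their promoters are shown for that reason. Each is the RefSeq sequence of GRCm38.p6 from 250 bases before to 50 bases after an annotated start, 5′ to 3′ on the gene's strand. Capitals mark a match to a searched motif. The Pik3ip1 promoter lies at chr11:3330481-3330780 on the plus strand, that of Pik3r5 at chr11:68431875-68432174 on the plus strand, and the first of the 2 promoters listed for Pik3r1 at chr13:101768168-101768467 on the minus strand.
Pik3ip1: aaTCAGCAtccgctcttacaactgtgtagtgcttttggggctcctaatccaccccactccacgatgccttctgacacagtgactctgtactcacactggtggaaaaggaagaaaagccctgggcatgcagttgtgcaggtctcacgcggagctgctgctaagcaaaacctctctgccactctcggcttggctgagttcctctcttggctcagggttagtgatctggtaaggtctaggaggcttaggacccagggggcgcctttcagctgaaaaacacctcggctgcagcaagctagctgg
Pik3r5: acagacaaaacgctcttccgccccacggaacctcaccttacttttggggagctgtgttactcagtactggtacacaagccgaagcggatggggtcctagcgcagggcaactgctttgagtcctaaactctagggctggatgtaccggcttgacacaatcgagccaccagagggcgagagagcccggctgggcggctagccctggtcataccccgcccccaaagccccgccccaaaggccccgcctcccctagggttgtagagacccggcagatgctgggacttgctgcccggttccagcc
Pik3r1: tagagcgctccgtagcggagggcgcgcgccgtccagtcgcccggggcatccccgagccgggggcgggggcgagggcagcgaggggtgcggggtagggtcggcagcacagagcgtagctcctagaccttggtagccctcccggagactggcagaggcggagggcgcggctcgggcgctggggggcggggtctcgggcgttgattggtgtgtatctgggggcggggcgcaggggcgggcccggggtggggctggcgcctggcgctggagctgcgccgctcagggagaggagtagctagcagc
The searched motifs, on both strands, were TGCTGA (the core of the Maf recognition element), GTAAACA (Foxo) and TGANTCA (AP-1). The only match in these 3 windows was TCAGCA near the upstream end of the Pik3ip1 window, which is TGCTGA read on the other strand. Among the 17 promoters listed for the 9 members, 4 held TGCTGA, against 19.5% of 32851 mouse promoters of the same length. GTAAACA was in 2 of the 17, against 3.6% of all promoters, and TGANTCA in 1, against 7.8%. The 4 with TGCTGA belonged to Pik3cg, Pik3ip1, Akt1 and Akt2, and the 2 with GTAAACA to Pik3cg and Akt1. The Pik3cd promoters held none of the 3 motifs. GC content was 54.7% in the Pik3ip1 window, 62% in that of Pik3r5 and 75.7% in that of Pik3r1. A match is a run of letters and was not tested as a binding site.

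Library totals were 8567035 to 13983965 counts, and member counts 244 to 8612 per library. Maf had 7 and 3 counts in Maf-KO gut, against 859 and 918 in WT gut. It had 2, 10 and 2 counts in Maf-KO spleen, against 337, 312 and 484 in WT spleen. The fitted log2 fold changes were -7.98 (SE 0.57) in gut and -6.04 (SE 0.46) in spleen, with edgeR adjusted p = 0.000451 and 0.00188, and the labels fit these counts. Foxp3 was 211 and 174 CPM (counts scaled to the library's TMM-adjusted total) in Maf-KO gut, against 156 and 206 CPM in WT gut. It was 121, 114 and 123 CPM in Maf-KO spleen, against 117, 126 and 134 CPM in WT spleen, so the Treg label was met by its defining gene in every library. Markers of other cells also differed between tissues, with 8 B cell genes summing to 50.7 to 82.2 CPM in Maf-KO gut and 59.8 to 68.3 in WT gut, against 139 to 424 in Maf-KO spleen and 209 to 315 in WT spleen. The 6 plasma cell genes summed to 1690 to 4080 CPM in Maf-KO gut and 2710 to 7120 in WT gut, against 254 to 426 in WT spleen, and in Maf-KO spleen they summed to 288 or more and stayed below every gut library. Most of the gut sum was Jchain, with 3340 and 1110 CPM in Maf-KO gut and 6320 and 2010 CPM in WT gut. The part of such cells in the results below was not tested. In bulk RNA, fewer cells of a type and less RNA per cell cannot be told apart.

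Pik3cd was the most abundant class I catalytic subunit in all 4 groups. On the FPKM scale, which divides by gene length and so allows genes to be compared, its level was 106 ± 1.7 in Maf-KO gut and 64.9 ± 4.92 in WT gut (SD, n = 2 each), and 128 ± 13.1 in Maf-KO spleen and 122 ± 3.91 in WT spleen (n = 3 each). Pik3ca, the ubiquitous p110 alpha subunit, had 14.2 ± 0.539 and 13.7 ± 2.41 FPKM in Maf-KO and WT gut and 21 ± 1.52 and 18.9 ± 3.81 FPKM in Maf-KO and WT spleen. Pik3cg, the p110 gamma subunit that acts downstream of G protein-coupled receptors, had 12.8 ± 0.649, 13.1 ± 0.449, 19.8 ± 0.714 and 17.5 ± 0.5 FPKM in the same order of groups. Between tissues, FPKM stood near values scaled by library totals without TMM factors. For Pik3ca in Maf-KO, gut against spleen was -0.56 on log2 FPKM and -0.58 with library totals, against -0.32 with TMM. Tissues are therefore compared on TMM-scaled counts below. In WT gut and in both spleen groups the ranges of Pik3ca and Pik3cg overlapped, so there these neighbours did not differ beyond their spread. The ranking of the 9 genes differed between groups. Maf-KO gut had Pik3cd highest, followed by Inpp5d (82.2), Akt1 (76.2) and Pik3r1 (68.5 FPKM), whereas WT gut had Pik3r1 highest (94 ± 19 FPKM), followed by Inpp5d (75.4) and Pik3cd (64.9). In Maf-KO gut the ranges of Inpp5d, Akt1 and Pik3r1 overlapped. In WT gut so did those of Pik3r1 and Inpp5d, and those of Inpp5d and Pik3cd. In both spleen groups Pik3cd was highest and Pik3ca and Pik3cg were the lowest of the 9.

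**Figure D1:**
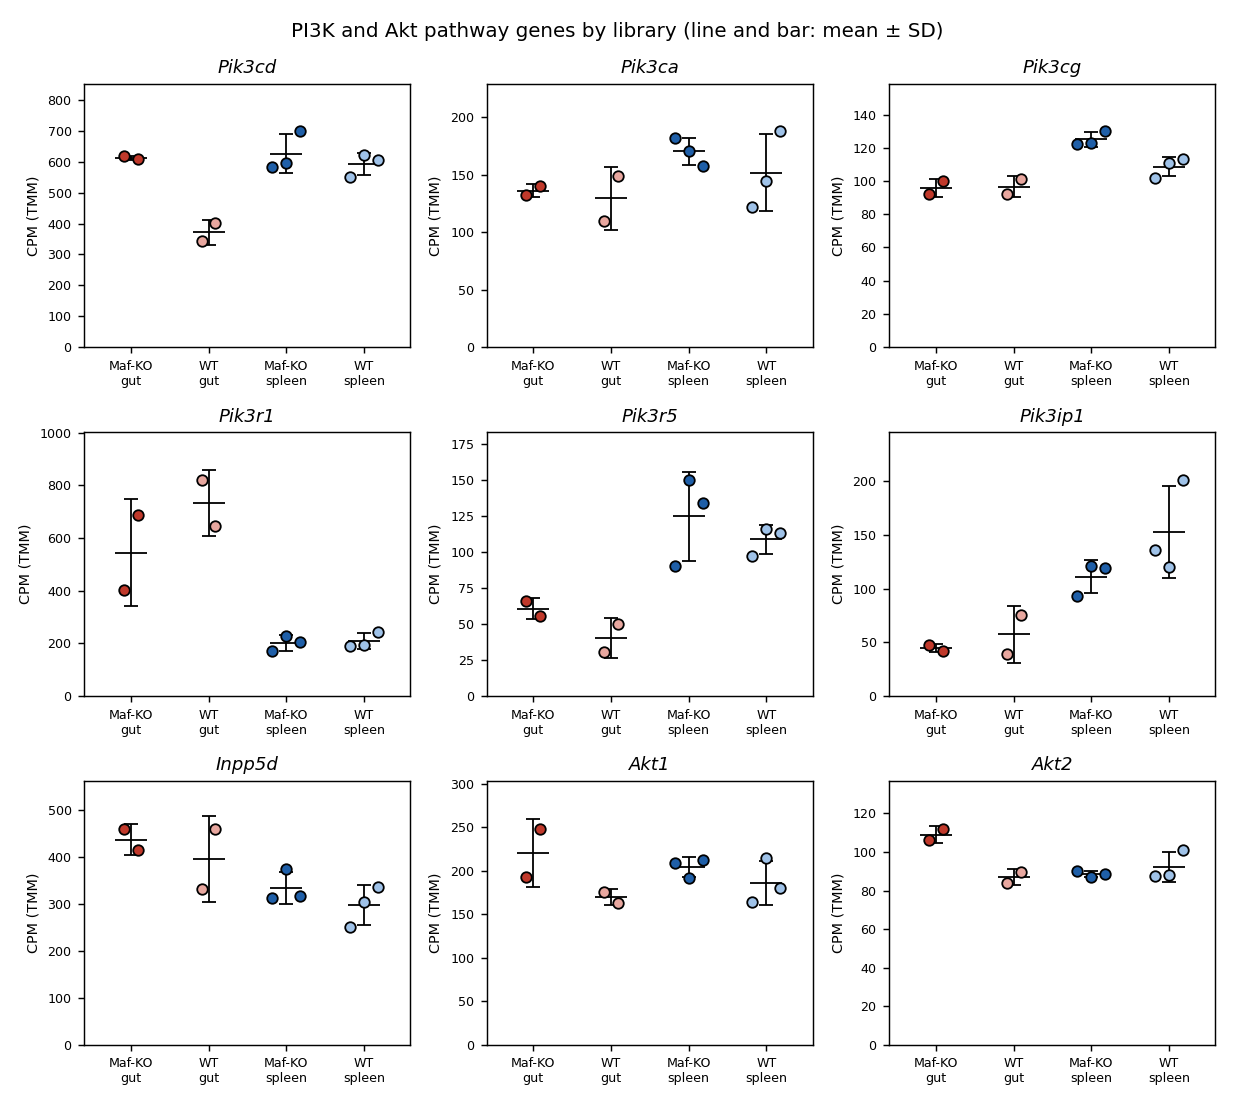
TMM-scaled CPM of the 9 genes, 1 panel each with its own axis from 0, in Maf-KO gut, WT gut, Maf-KO spleen and WT spleen. Points are libraries, lines are means and bars are SD. In gut, both Maf-KO libraries of Pik3cd (618 and 609 CPM) lie above both WT libraries (343 and 401 CPM), and Pik3r1 is higher in gut than in spleen in every library.

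Maf-KO and WT gut cells differed most in Pik3cd among the 9 genes, without passing the adjusted test. Pik3cd is a protein-coding gene on the minus strand at chr4:149649168-149702571 (GRCm38). Pik3cd had 618 and 609 CPM in Maf-KO gut, against 343 and 401 CPM in WT gut. The 2 groups did not overlap. The log2 fold change was 0.72 (SE 0.14, 95% interval 0.42 to 1.03), a ratio of 1.65, with unadjusted p = 0.000347 and edgeR adjusted p = 0.114. DESeq2 (adjusted p = 0.00013) and edgeR without the low-count filter (log2 fold change 0.74, adjusted p = 0.0497) did call it, and the adjusted p over all 19 alternatives ranged 0.00013 to 0.569. In spleen the log2 fold change of Pik3cd was 0.08 (SE 0.11, 95% interval -0.17 to 0.32), with 584, 595 and 699 CPM in Maf-KO libraries against 552, 622 and 605 CPM in WT libraries. These ranges overlapped. The genotype effect in gut minus that in spleen was 0.64 (SE 0.17), with unadjusted p = 0.00426 and edgeR adjusted p = 1, so the difference between tissues did not pass either.

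The other members gave smaller or less even genotype differences in gut. Akt2, an Akt isoform known for its role in insulin responses, had 106 and 112 CPM in Maf-KO gut against 84.1 and 89.8 CPM in WT gut. Akt1, the isoform that nearly all cells express, had 193 and 248 CPM in Maf-KO gut against 176 and 163 CPM in WT gut. In both genes the Maf-KO libraries were above the WT libraries, with log2 fold changes of 0.33 (SE 0.11, unadjusted p = 0.0129, edgeR adjusted p = 0.468) for Akt2 and 0.38 (SE 0.16, unadjusted p = 0.0373, adjusted p = 0.59) for Akt1. Pik3r5, the p101 regulatory subunit that couples p110 gamma to G protein beta-gamma subunits, had 65.8 and 55.5 CPM in Maf-KO gut against 30.6 and 50 CPM in WT gut, again without overlap. Its log2 fold change was 0.59 (SE 0.26, edgeR adjusted p = 0.618), and 0.28 without WT gut replicate 1 and 0.99 without WT gut replicate 3. Pik3r1, which encodes the regulatory subunit p85 alpha that stabilises and restrains class IA catalytic subunits, varied widely, with 401 and 687 CPM in Maf-KO gut against 820 and 645 CPM in WT gut. Pik3ip1, a transmembrane inhibitor of PI3K, had 47.2 and 42.2 CPM in Maf-KO gut against 38.7 and 75.8 CPM in WT gut. For both the groups overlapped, and the log2 fold changes were -0.43 (SE 0.25) and -0.36 (SE 0.31). Single gut libraries decided the sizes, and with each left out the Pik3r1 value was -0.86 to -0.09 and that of Akt1 0.19 to 0.55. Inpp5d, the gene of SHIP1, which removes a phosphate from PIP3, had 460 and 414 CPM in Maf-KO gut and 331 and 460 CPM in WT gut. Its log2 fold change was 0.14 (SE 0.19), and those of Pik3ca and Pik3cg were 0.07 (SE 0.20) and -0.01 (SE 0.11).

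In gut 0 of the 9 members passed the adjusted test, where 0.151% of all genes tested did. At unadjusted p under 0.05 there were 3 of 9 by edgeR, 4 by DESeq2 and 3 by limma-voom, against 8.14% of all genes by edgeR. Over all genes these were 1076 by edgeR, 1003 by DESeq2 and 1097 by limma-voom. The groups did not overlap for 4 of 9, all higher in Maf-KO, against 36.2% of all genes (17.4% higher, 18.8% lower in Maf-KO). DESeq2 called 1 member, Pik3cd, and limma-voom 0, where they called 112 and 33 of all genes. The median log2 fold change was 0.14 over the 9 members and 0 over all genes tested. Among markers of other cells in gut, the CD8, NK and innate lymphoid list of 8 genes, mostly Gzma, summed to 4930 and 5230 CPM in Maf-KO libraries against 2940 and 3260 CPM in WT libraries, while Cd8a was 11.1 and 7.5 CPM against 7.28 and 6.03 CPM. The pancreatic acinar list of 8 genes summed to 15.8 to 27.3 CPM in Maf-KO gut, where 6 of its genes were at 0 in both libraries, against 37.8 to 161 CPM in WT gut. Their part in the values of Pik3cd was not tested.

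In spleen 0 of the 9 members passed, where 0.0151% of all genes did, and every member had an edgeR adjusted p of 0.999. At unadjusted p under 0.05, over all genes, there were 376 by edgeR, 359 by DESeq2 and 321 by limma-voom. Of the members there was 1 of 9 by edgeR, DESeq2 and limma-voom each, against 2.85% of all genes by edgeR. By edgeR it was Pik3cg, which also was the single member whose groups did not overlap, against 7.51% of all genes (3.6% higher, 3.9% lower in Maf-KO). It had 122, 123 and 130 CPM in Maf-KO spleen and 102, 111 and 113 CPM in WT spleen, a log2 fold change of 0.20 (SE 0.09, unadjusted p = 0.0457). The interval of each member's difference stayed within a log2 change of -1.01 (Pik3ip1) and 0.66 (Pik3r5). Pik3ip1 had 93, 121 and 119 CPM in Maf-KO spleen against 136, 120 and 201 CPM in WT spleen, with overlap and a log2 fold change of -0.45 (SE 0.25). The median was 0.13 over the 9 members and -0.01 over all genes tested. For the difference of the genotype effects between the tissues, 0 of 9 members and 0% of all genes passed by edgeR. Unadjusted p was under 0.05 for 2 members by each of edgeR, DESeq2 and limma-voom, against 3.19% of all genes by edgeR. By edgeR the 2 were Pik3cd and Akt2 (0.38, SE 0.14, unadjusted p = 0.0211). Over all genes there were 422 by edgeR, 382 by DESeq2 and 391 by limma-voom.

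**Figure D2:**
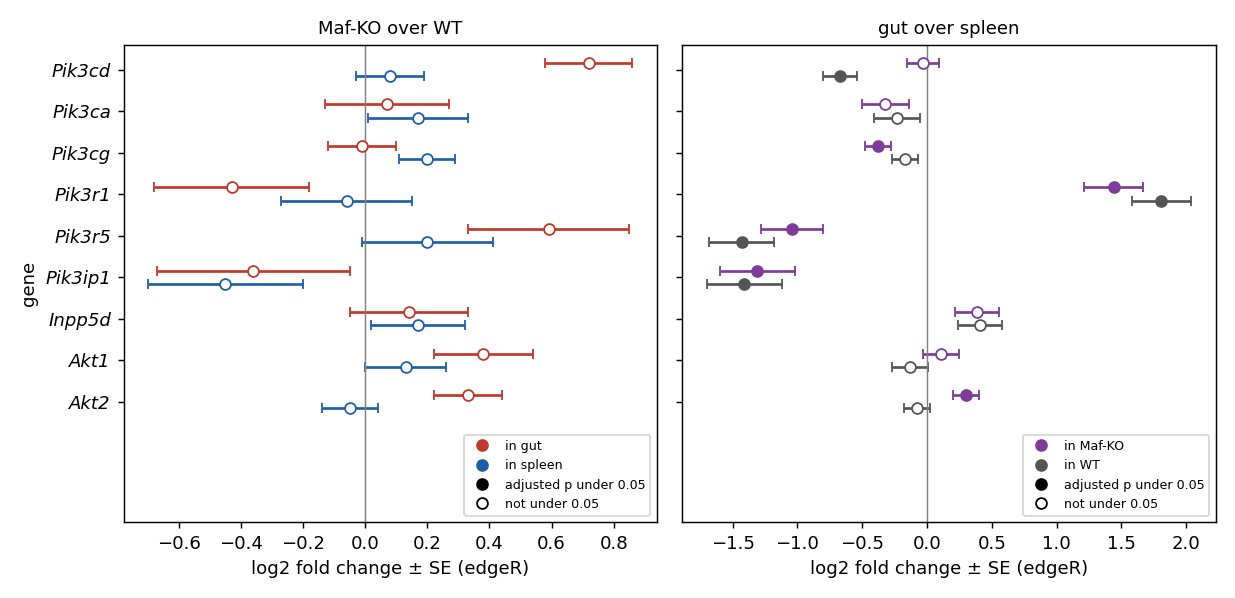
Log2 fold changes ± SE (edgeR) of the 9 genes, Maf-KO over WT in gut and in spleen on the left and gut over spleen in Maf-KO and in WT on the right. Filled points passed an adjusted p of 0.05. No point is filled on the left, and Pik3r1 lies right and Pik3r5 and Pik3ip1 left of 0 in both genotypes on the right.

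Pik3r1 was higher in gut Treg cells, and Pik3r5 and Pik3ip1 were lower there, in both genotypes. Pik3r1 had 401 and 687 CPM in Maf-KO gut, against 169, 229 and 204 CPM in Maf-KO spleen. It had 820 and 645 CPM in WT gut, against 191, 192 and 244 CPM in WT spleen. Every gut library was above every spleen library, and the ratio was 2.71 in Maf-KO (log2 fold change 1.44, SE 0.23, edgeR adjusted p = 0.0013) and 3.51 in WT (1.81, SE 0.23, adjusted p = 0.000348). The call held in all 20 alternatives in each genotype.

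Pik3r5 had 65.8 and 55.5 CPM in Maf-KO gut, against 90.2, 150 and 134 CPM in Maf-KO spleen. It had 30.6 and 50 CPM in WT gut, against 97.2, 116 and 113 CPM in WT spleen. No gut library reached a spleen library. Pik3r5 was 2.06-fold lower in gut in Maf-KO (log2 fold change -1.04, SE 0.24, edgeR adjusted p = 0.0101) and 2.70-fold lower in WT (-1.43, SE 0.25, adjusted p = 0.00233). In Maf-KO the call ended without Maf-KO gut replicate 3 (adjusted p = 0.0901).

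Pik3ip1 had 47.2 and 42.2 CPM in Maf-KO gut, against 93, 121 and 119 CPM in Maf-KO spleen. In WT it had 38.7 and 75.8 CPM in gut, against 136, 120 and 201 CPM in spleen. Again no gut library reached a spleen library. Pik3ip1 was 2.49-fold lower in gut in Maf-KO (log2 fold change -1.31, SE 0.29, edgeR adjusted p = 0.0082) and 2.66-fold lower in WT (-1.41, SE 0.29, adjusted p = 0.00586). Without Maf-KO gut replicate 3 the adjusted p in Maf-KO was 0.0694. Exons of Pik3ip1 share 91 bases, 2.13% of its exonic length, with the antisense gene Gm12592, and whether counting used the strand is unknown here, so reads of those bases cannot be assigned to either strand.

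Of the other 6 members, Pik3cd was called between tissues in WT and Pik3cg and Akt2 in Maf-KO, and Pik3ca, Inpp5d and Akt1 in neither genotype. Pik3cd was 1.59-fold lower in gut than in spleen in WT cells (log2 fold change -0.67, SE 0.13, edgeR adjusted p = 0.00336), with 343 and 401 CPM against 552, 622 and 605 CPM. In Maf-KO cells its log2 fold change was -0.03 (SE 0.12, 95% interval -0.30 to 0.25, adjusted p = 0.893), with 618 and 609 CPM in gut inside the spleen range of 584 to 699 CPM. Pik3cg was 1.30-fold lower in gut in Maf-KO (-0.38, SE 0.10, edgeR adjusted p = 0.0174), with 92.2 and 99.9 CPM against 122, 123 and 130 CPM, and in WT the log2 fold change was -0.17 (SE 0.10, adjusted p = 0.234). Akt2 was 1.23-fold higher in gut in Maf-KO (0.30, SE 0.10, edgeR adjusted p = 0.0438), with 106 and 112 CPM against 89.9, 87 and 88.8 CPM, and in WT it was -0.08 (SE 0.10, adjusted p = 0.582). Pik3ca had log2 fold changes of -0.32 (SE 0.18, edgeR adjusted p = 0.227) in Maf-KO and -0.23 (SE 0.18, adjusted p = 0.397) in WT, and Akt1 of 0.11 (SE 0.14, adjusted p = 0.602) and -0.13 (SE 0.14, adjusted p = 0.54). These differences between genotypes are the same quantity as the difference of the genotype effects above, which no member passed. The Pik3cg call ended without Maf-KO gut replicate 2 (adjusted p = 0.132), without the other Maf-KO gut library (0.0579) or without replicate 3 of Maf-KO spleen (0.0522), and that of Akt2 in 13 of 20 alternatives. Inpp5d had log2 fold changes of 0.39 (SE 0.17, edgeR adjusted p = 0.119) in Maf-KO and 0.41 (SE 0.17, adjusted p = 0.0983) in WT. With the number in the sample titles as a block, which joins gut and spleen libraries, it was called in both, at 0.34 (adjusted p = 0.018) and 0.43 (adjusted p = 0.00754).

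In Maf-KO, 5 of 9 members were called between gut and spleen, 2 higher and 3 lower in gut, where 28.5% of all genes were called (14.4% higher, 14.1% lower). Without Maf-KO spleen replicate 3 the member count was 3. It also fell without either Maf-KO gut library, which leaves 1 library in that group, and calls over all genes fell there as well. In WT, 4 of 9 were called, 1 higher and 3 lower, where 28% of all genes were (14.7% higher, 13.3% lower). Scaling by library totals without TMM factors moved the median of all genes by -0.26 in Maf-KO and -0.27 in WT (log2), and then the members split as 1 higher and 4 lower in Maf-KO and 1 higher and 7 lower in WT. Under that scaling 25.1% of all called genes were higher in gut in Maf-KO, against 50.5% with TMM, and in WT 25.2% against 52.4%. Pik3r1, Pik3r5 and Pik3ip1 kept their calls and directions under it in both genotypes, as did Pik3cg in Maf-KO and Pik3cd in WT. The tissues did not overlap for 7 of 9 members in Maf-KO, 3 higher and 4 lower in gut, against 56.4% of all genes (27.5% higher, 28.9% lower). In WT they did not overlap for 5 of 9, 1 higher and 4 lower, against 53.4% of all genes (25.9% higher, 27.5% lower). At unadjusted p under 0.05 by edgeR there were 6 of 9 in Maf-KO and 5 of 9 in WT, where 39.9% of all genes stood in each genotype. The 4 comparisons share libraries, so their calls are not independent of each other.

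The composition of the pathway was described by ratios within a library, on FPKM. Of the summed RNA of the 4 class I catalytic subunits, Pik3cd was 78.1% ± 1.1 in Maf-KO gut and 68.7% ± 0.496 in WT gut (SD, n = 2 each). The libraries had 78.8% and 77.3% in Maf-KO gut against 69% and 68.3% in WT gut, without overlap. A two-sided exact permutation test gave p = 0.333, the smallest that 2 against 2 libraries allow. Between tissues the Pik3cd share differed, as gut minus spleen, by 4.39 percentage points in Maf-KO and -6.56 points in WT, each without overlap (exact permutation p = 0.2 and 0.1, smallest possible 0.1). In spleen the Pik3cd share was 73.7% ± 1.92 in Maf-KO and 75.2% ± 1.95 in WT (SD, n = 3 each, exact permutation p = 0.2, smallest possible 0.1). The share of Pik3cg was 9.49% ± 0.5 in Maf-KO gut and 13.9% ± 0.68 in WT gut, and 11.5% ± 0.435 in Maf-KO spleen and 10.7% ± 0.179 in WT spleen. Pik3cb, the p110 beta subunit, made up 1.96% to 3.03% on average. The log2 ratio of Pik3ip1 to the summed catalytic subunits averaged -2.46 ± 0.564 in gut and -1.40 ± 0.388 in spleen (n = 4 and 6, difference -1.06, two-sided exact permutation p = 0.00952, adjusted over 9 ratio tests 0.0857). That test treats gut and spleen libraries as independent. In the 4 pairs joined by title number, gut minus spleen was -1.30 and -1.27 in Maf-KO and -1.27 and -0.907 in WT, with a mean of -1.19. It was negative in 4 of 4 pairs, and the exact permutation of signs over pairs, added after seeing the data, gave p = 0.125, the smallest that 4 pairs allow. Within genotypes the difference was -1.20 in Maf-KO and -0.913 in WT, and in each the tissues did not overlap. Between genotypes the Pik3ip1 ratio was -2.87 ± 0.12 in Maf-KO gut and -2.05 ± 0.517 in WT gut, without overlap (exact permutation p = 0.333, smallest possible 0.333). In spleen this ratio was -1.67 ± 0.183 in Maf-KO and -1.14 ± 0.358 in WT, with overlap (exact permutation p = 0.2, smallest possible 0.1). The log2 ratio of Akt1 to Akt2 was 1.28 ± 0.201 in Maf-KO gut and 1.23 ± 0.145 in WT gut, and 1.47 ± 0.061 in Maf-KO spleen and 1.28 ± 0.24 in WT spleen, and the groups overlapped in each tissue.

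**Figure D3:**
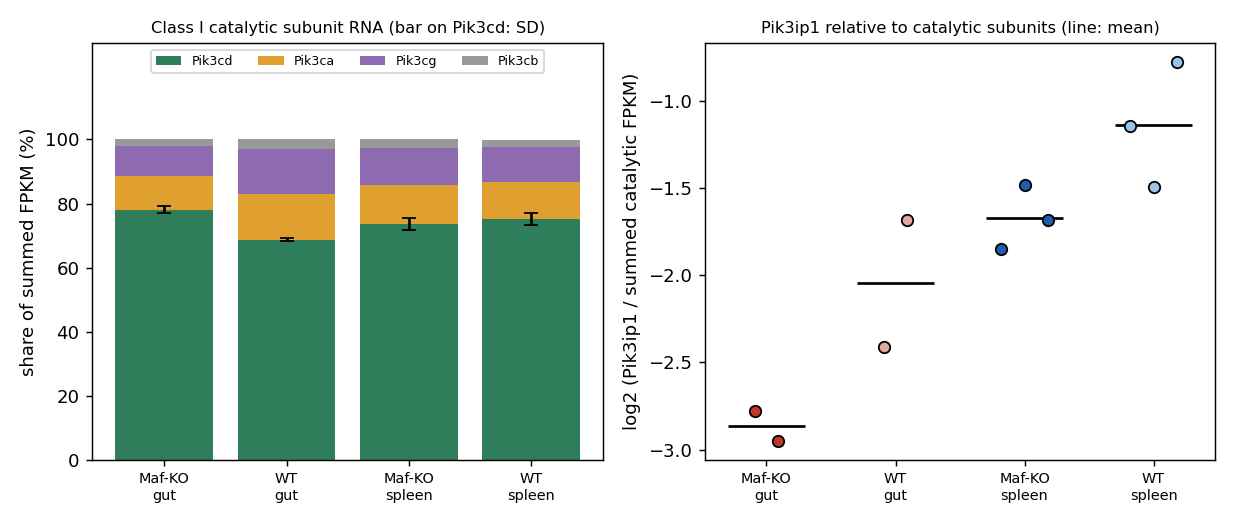
Left, mean share (%) of Pik3cd, Pik3ca, Pik3cg and Pik3cb in the summed FPKM of class I catalytic subunits per group, with the SD of the Pik3cd share as a bar. Right, log2 ratio of Pik3ip1 to that sum, with points for libraries and lines for means. The Pik3cd share is 78.1% in Maf-KO gut and 68.7% in WT gut, and the ratio is lower in gut than in spleen within each genotype.

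Around the 9 members, 8 lists of other pathway genes with 109 genes in all were examined, of which 103 were tested. A gene may be in more than 1 list. Between Maf-KO and WT, edgeR called 0 of 103 in gut and 0 of 103 in spleen, where 0.151% and 0.0151% of all genes were called. DESeq2, which called 112 of all genes in gut, called 1 of the 103. It was the class II kinase Pik3c2a (log2 fold change -0.63, adjusted p = 0.0311), which edgeR gave an adjusted p of 0.214. Trib2, a pseudokinase, had 448 CPM in Maf-KO gut and 289 CPM in WT gut (log2 fold change 0.63, SE 0.20, edgeR adjusted p = 0.445). Gab3, an adaptor of the Gab family, had 13.1 CPM in Maf-KO gut and 21 CPM in WT gut (-0.68, SE 0.22, edgeR adjusted p = 0.454). Il7r, the interleukin-7 receptor chain, had 212 CPM in Maf-KO gut and 475 CPM in WT gut (log2 fold change -1.16, SE 0.40, edgeR adjusted p = 0.49). The median log2 fold change over the 103 genes was 0.03 in gut and -0.01 in spleen.

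Between gut and spleen, 30 of 103 were called in Maf-KO (21 higher, 9 lower), or 29.1%, and 35 in WT (21 higher, 14 lower), or 34%, beside 28.5% and 28% of all genes. With library totals alone the split was 11 higher and 28 lower in Maf-KO and 12 higher and 32 lower in WT. With TMM, fewer of the 103 were called in Maf-KO without Maf-KO gut replicate 3, and in WT without WT gut replicate 1. Each of these fits leaves 1 library in a gut group, and calls over all genes fell as well. Of all genes, 14.4% were called higher and 14.1% lower in gut in Maf-KO with TMM, and 14.7% and 13.3% in WT. Of 23 receptors and adaptors upstream of PI3K, 8 were higher and 1 lower in Maf-KO gut, and 6 higher and 3 lower in WT gut. With library totals alone these were 3 and 3 in Maf-KO, and 4 and 4 in WT. The costimulatory receptor Icos averaged 1250 CPM in Maf-KO gut and 267 CPM in Maf-KO spleen (log2 fold change 2.23, edgeR adjusted p = 0.000339), and 1620 CPM in WT gut and 306 CPM in WT spleen (2.41, adjusted p = 0.000206). Irs2, an adaptor of insulin and IGF1 receptors, was higher in gut by log2 2.39 in Maf-KO and 2.26 in WT, whereas the receptor Igf1r was lower, with -1.86 and -1.44. Dok1, an adaptor that dampens receptor signals, was higher by 1.15 and 1.25.

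Of 12 Foxo target genes tested, 3 were higher and 4 lower in Maf-KO gut than in spleen, and 4 higher and 4 lower in WT gut. Of all genes, 14.4% were called higher and 14.1% lower in Maf-KO, and 14.7% and 13.3% in WT. With library totals alone the Foxo targets split as 3 and 5, and 3 and 6. Among the lower ones, S1pr1, the receptor for lymphocyte egress, averaged 119 CPM in Maf-KO gut and 596 CPM in Maf-KO spleen, and 82.9 CPM in WT gut and 567 CPM in WT spleen. S1pr1 had log2 fold changes of -2.32 and -2.77, and Tcf7, the transcription factor TCF-1, -2.19 and -2.34, in Maf-KO and WT. Bcl6, a transcriptional repressor, was higher in gut instead, by 1.95 and 2.06. So the called members of the list were split in direction in both genotypes.

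Of 14 Akt substrates, 6 were higher and 0 lower in gut in Maf-KO, and 5 higher and 0 lower in WT, where 14.4% and 14.7% of all genes were called higher and 14.1% and 13.3% lower. With library totals alone the split was 2 higher and 2 lower in Maf-KO, and 2 higher and 3 lower in WT. Cdkn1a, the cell cycle inhibitor p21, averaged 136 CPM in Maf-KO gut and 3.48 CPM in Maf-KO spleen (log2 fold change 5.30, edgeR adjusted p = 1.02e-05), and 157 CPM in WT gut and 2.9 CPM in WT spleen (5.78, adjusted p = 6.74e-06). Foxo3 was higher by 1.66 and 2.17, and Mdm2, which targets p53, by 0.43 and 0.52. Among 14 PH domain effectors, 2 were higher and 2 lower in Maf-KO gut, and 3 higher and 3 lower in WT gut, and with library totals alone 2 and 3 in each genotype. Arap3, a regulator of small GTPases, was higher by 2.73 and 1.46, and the kinase Btk lower, with -2.23 and -2.08. Btk is strongly expressed in B cells, and the B cell marker sum stood lower in every gut library than in every spleen library, as given above. Its part in the Btk values was not tested.

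Of 14 Akt kinases and regulators, 2 were higher and 0 lower in Maf-KO gut, and 2 higher and 1 lower in WT gut. With library totals alone these were 1 and 3 in Maf-KO, and 1 and 6 in WT. For this and the next 3 lists, the shares over all genes were 14.4% higher and 14.1% lower in Maf-KO, and 14.7% and 13.3% in WT. Trib1, a pseudokinase, was higher by 1.86 and 1.66, Ppp2ca, a catalytic subunit of protein phosphatase 2A, by 0.37 and 0.50, and Akt1s1, an mTORC1 component, was lower in WT (-0.74). Of 12 phosphoinositide phosphatases, Inpp5f was lower in gut in both genotypes (-0.96 and -1.06) and Ocrl higher in WT (0.80). Of 4 other class I genes, Pik3r2, the p85 beta regulatory subunit, was lower in gut (-0.95 and -0.73), opposite to Pik3r1. Of 12 class II and III PI3K and phosphoinositide kinases, 0 were called in Maf-KO and Pip4k2a was lower in WT (-0.57).

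**Figure D4:**
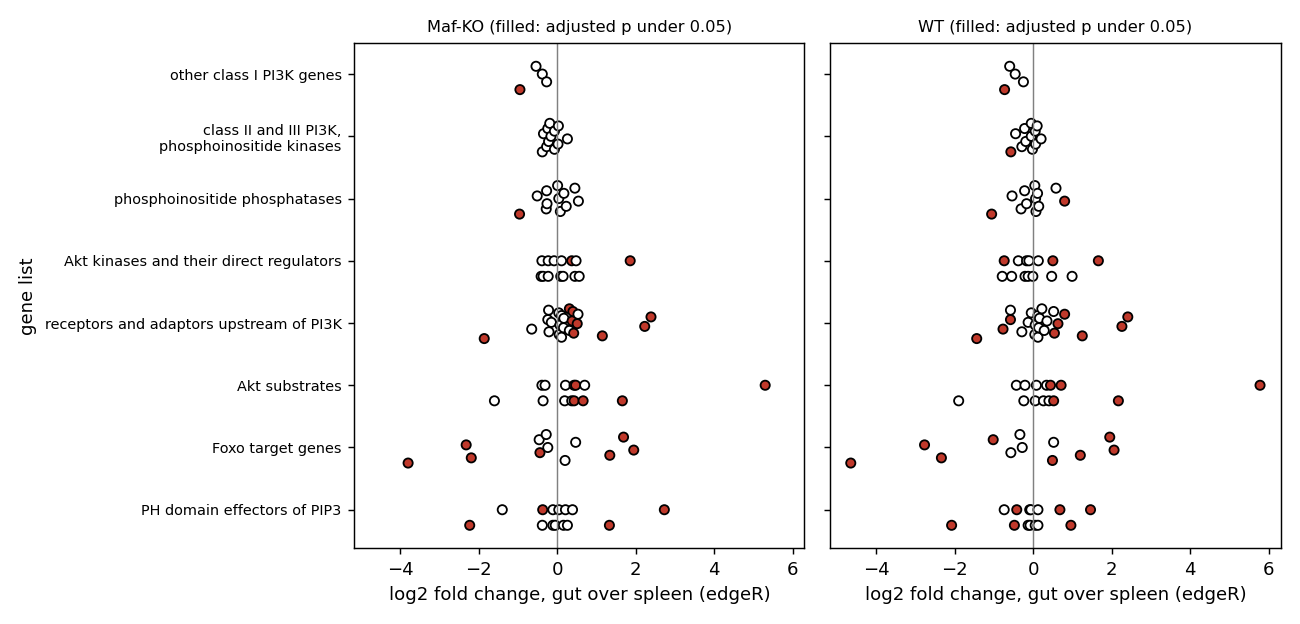
Log2 fold change, gut over spleen (edgeR), of each tested gene in the 8 other pathway lists, in Maf-KO on the left and WT on the right. Each point is a gene, and filled points passed an adjusted p of 0.05. Cdkn1a (5.30 and 5.78) is the point furthest to the right in both genotypes.

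Across the 10 libraries, the 3 members called between tissues in both genotypes varied together or in opposition. On log2 CPM, Pearson's r was -0.89 between Pik3r1 and Pik3r5, -0.81 between Pik3r1 and Pik3ip1, and 0.83 between Pik3r5 and Pik3ip1. Some pairs with other members were similar in strength, with 0.82 between Pik3cg and Pik3r5, 0.8 between Pik3cd and Pik3r5 and -0.74 between Pik3cg and Pik3r1. Others were weak, with -0.07 between Pik3r1 and Akt1 and 0.18 between Pik3r5 and Akt1. The value was -0.13 between Pik3r5 and Akt2 and -0.15 between Pik3cd and Inpp5d. The gene most like Pik3cd among 9543 genes with a mean of at least 5 CPM was Gtpbp1 (r = 0.949), followed by Zfp689 (0.949) and Srfbp1 (0.94). For Pik3r1 they were P2ry10 (0.982), Ipmk (0.981) and Nampt (0.976), and for Pik3r5 Acss1 (0.989), Pip4k2a (0.984) and Sh3bp5 (0.983). Pik3ip1 was most like Snx11 (0.975), Mettl17 (0.973) and Gpr18 (0.973), and Inpp5d most like Pdcd6ip (0.993), Pea15a (0.981) and Canx (0.972). These values describe 10 libraries that fall into 2 tissues and 4 groups, and carry no test. Group means were not removed. The 3 members were picked by their calls between tissues, so their r values include that difference and add no separate support.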

How the data were processed

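RNA of sorted Treg cells was sequenced in 10 libraries, grouped by the tissue and genotype labels. RNA was prepared with RNeasy Plus Mini and libraries with TruSeq RNA kits, per the labels. The authors deposited a table of raw counts, 1 row per Entrez gene, and the deposited log2 files hold log2 FPKM of 12252 genes per library, which served as levels per length and as an alternative. Subread, featureCounts, limma and the builds GRCm38 and mm10 are listed in the submitters' processing notes. Their versions, the annotation and the use of strand were not given in the sources used here.

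In R 4.3.3, edgeR 4.0.16 kept genes by filterByExpr (minimum count 10, minimum total 15), applied TMM factors (0.887 to 1.12) and fitted a quasi-likelihood model with 1 coefficient per group to all libraries. Benjamini-Hochberg adjustment ran over the 13214 genes tested, and an adjusted p under 0.05 was a call. Of the entries, 852 have no symbol. They held 0.173 to 0.203% of the counts and stayed in. Replicates differed by more than counting (chi-square per degree of freedom 14.8 to 35.1). All sample columns were used. The code of the fit was tested on simulated data. Alternatives were DESeq2 1.42.0, voom and trend of limma 3.58.1, other scalings, no filter, other samples in the fit, replicate blocks and leaving out each library.

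The number in the sample titles joins gut and spleen libraries. Their deviations from the group means correlated in all 4 pairs (r = 0.302 to 0.487). With 2 libraries in a gut group, their deviations mirror each other, so these 4 values are not independent. The pairing was used as a block only among the alternatives. The main fit, with its tests between tissues, treats gut and spleen libraries as independent. The members and lists were chosen with earlier results of these data known. All 9 members are named, with Maf, up to 4 called genes by adjusted p per other list (or up to 2 by unadjusted p), and the 3 genes most correlated with a member. Some genes that this rule names are not reported here. Promoters came from a RefSeq table.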

Additional observations from a re-analysis of the deposited data

How the results depend on the processing

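Of 873 values of single members under alternative settings, 815 kept their direction and side of the threshold, 18 lost a call, 16 gained one and 24 changed sign, none of them in a called result. Members called in gut between Maf-KO and WT were 1 without the filter on low counts and 1 with DESeq2, against 0. Over all genes these settings called 74 and 112, against 20. Members called between gut and spleen in Maf-KO fell to 3 without Maf-KO spleen replicate 3, against 5. They also fell without either Maf-KO gut library, which leaves 1 in its group, and calls over all genes fell there too. In WT, 8 members were called with library totals alone, against 4. Over all genes in WT, that scaling called 1328 higher and 3941 lower, against 1942 and 1761. The cause was not tested. Changes of sign by setting were Pik3cg in gut between genotypes without a filter (0.0076), Inpp5d in gut between genotypes with the label numbers as a replicate block (-0.013), and Akt1 in Maf-KO between tissues with library totals (-0.14) and with log2 FPKM (-0.14).

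With each library left out, log2 fold changes between genotypes in gut were -0.12 to 0.31 for Pik3ca, -0.071 to 0.064 for Pik3cg, -0.76 to 0.21 for Pik3ip1 and -0.07 to 0.4 for Inpp5d. In spleen they were -0.0097 to 0.13 for Pik3cd, -0.16 to 0.07 for Pik3r1 and -0.088 to 0.014 for Akt2. Between tissues in Maf-KO they were -0.076 to 0.059 for Pik3cd and -0.075 to 0.28 for Akt1. For the difference of genotype effects they were -0.29 to 0.14 for Pik3ca, -0.3 to 0.67 for Pik3ip1 and -0.24 to 0.24 for Inpp5d. The Pik3cd share in gut minus spleen over both genotypes pooled, which differ in direction, was -2.91 to 0.599 percentage points (main -1.08), and the Akt1 to Akt2 log2 ratio in gut between genotypes -0.1 to 0.184. With the title number pairs as a replicate block, an alternative chosen after seeing the data, the Pik3ip1 to catalytic ratio in gut minus spleen was -1.19 (exact permutation p = 0.125), where 4 pairs cannot give a smaller p.

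Apart from the fits that left out a library, genes called over all genes were 9 to 112 in gut between genotypes (main 20). There were 112 with DESeq2, 74 without a filter, and 42 and 9 with replicate blocks. The ranges were 0 to 19 in spleen (main 2), 3472 to 5777 between tissues in Maf-KO (main 3772) and 3089 to 5498 in WT (main 3703). With limma-voom 0 were called in spleen, and 321 had an unadjusted p under 0.05. DESeq2 called 8 for the difference of genotype effects. Leaving out a gut library gave 4 to 7 in gut. With the title number as a fixed replicate block, 46 genes of the other lists were called in Maf-KO, against 30. For members, that block changed no call other than the 2 of Inpp5d. Label numbers shared across genotypes did not pair the libraries (r = -0.047, -0.201 and -0.388 in spleen), and with them as a block 0 members were called between genotypes. Each gut group has 2 libraries, so leaving 1 out assumes that the lone library varies like the others.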
